A study of Rattus norvegicus with 18 samples.

Results

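The endogenous opioid system was read here through 7 genes: the 3 peptide precursors *Penk* (proenkephalin), *Pdyn* (prodynorphin) and *Pnoc* (prepronociceptin), and the 4 receptors *Oprm1* (mu), *Oprd1* (delta), *Oprk1* (kappa) and *Oprl1* (nociceptin receptor). They were taken by gene symbol from the 38445 genes counted in each library. All 7 stood among the 17853 genes that passed the low-count filter and were tested.

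RNA-Seq was performed on the dorsal hippocampus of 18 adult male Sprague-Dawley rats, wild type throughout, in 3 groups of 6. Control rats received the Lieber-DeCarli control liquid diet. Chronic Ethanol rats (hereafter ethanol) received the same diet with 9% v/v ethanol for 15 or 16 days and were taken at 0 h of withdrawal, and Withdrawal rats received that ethanol diet and were taken 24 h after it was removed. Every group lived on liquid diet as its sole food and fluid, and the ethanol groups were brought up to the full dose in steps. Whole tissue was sequenced, so that fewer cells of a type and less RNA per cell cannot be told apart in any value below.

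Opioid peptides are cut from large precursors by convertases in dense-core vesicles. Proenkephalin yields the enkephalins, which act mainly on delta and mu receptors, prodynorphin yields dynorphins for the kappa receptor, and prepronociceptin yields nociceptin, the ligand of the receptor encoded by *Oprl1*. All 4 receptors couple to inhibitory Gi/o proteins. In the hippocampus, dynorphin is best known from the granule cells of the dentate gyrus and their mossy fibers, while nociceptin and the mu and delta receptors are found largely in GABAergic interneurons.

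In the rat genome build Rnor_6.0 of the deposited files, *Penk* (gene ID 29237) lies on chromosome 5 from 17056412 to 17061762, *Pdyn* (29190) on chromosome 3 from 122194327 to 122206671 and *Pnoc* (25516) on chromosome 15 from 48805841 to 48833071, all on the minus strand. The receptor *Oprm1* (25601) lies on the plus strand of chromosome 1 from 43454803 to 43704948, and *Oprl1* (29256) on the plus strand of chromosome 3 from 177223779 to 177231663. *Oprd1* (24613; 150288126 to 150323063) and *Oprk1* (29335; 13742655 to 13760460) are both on the minus strand of chromosome 5. Read pairs were counted over exons by strand. *Oprm1* overlaps *Ipcef1*, a gene on the opposite strand with a mean of 48.7 CPM, whose level had r = 0.64 with that of *Oprm1* over the rats, and its part in the *Oprm1* counts was not tested. *Penk* overlaps *LOC100909916* on the same strand, a gene listed at 0 CPM, and the part of this overlap in the *Penk* counts was not tested.

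Promoter sequence was available in the RefSeq table (build GRCr8) for 3 of the 7 genes: *Pdyn*, *Oprm1* with 2 start sites, and *Oprd1*. Each entry holds 250 bases before and 50 bases after the annotated start. The cAMP response element TGACGTCA and the AP-1 site TGANTCA, the sites of CREB and of Fos and Jun proteins, were searched on both strands and were found in none of the 4 windows. Of all 33469 promoters in the table, 1.83% held the first and 7.33% the second. A TATAAA motif, present in 14.2% of all promoters, was found in *Pdyn* alone, with its first base 13 bases before the start. The 100 bases before the start are shown for *Pdyn*, with that motif in capitals (chr3:137366504-137366603, minus strand), and for *Oprd1* (chr5:149625000-149625099, minus strand), where 84% of the bases are G or C against 63% in *Pdyn*.
Pdyn: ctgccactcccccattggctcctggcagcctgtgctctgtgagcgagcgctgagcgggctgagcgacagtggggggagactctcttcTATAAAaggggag
Oprd1: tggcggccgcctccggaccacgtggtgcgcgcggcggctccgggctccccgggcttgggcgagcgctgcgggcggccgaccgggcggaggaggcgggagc

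Between 30873228 and 42679748 read pairs were assigned to genes per rat, and levels are given as counts per 1000000 counts (CPM) after TMM scaling. All 6 tested markers of hippocampal pyramidal cells and all 6 of dentate granule cells were counted in every rat. Markers of neighbouring tissue varied between rats. Ethanol rats 1 and 4 had the highest summed level of 8 striatal markers, 737 and 555 CPM, against 247 to 369 CPM in the other 16 rats. Their levels of *Drd1* (36.2 and 30.8 CPM, 12.6 or less in each control rat) and of *Adora2a* (33.8 and 23.3 CPM, 5.62 or less in each control rat), receptors of striatal projection neurons, were high as well. The same 2 rats led the sum of 6 thalamic markers (1219 and 721 CPM), followed by control rat 6 (625 CPM). Withdrawal rat 5 had the lowest sum of hippocampal pyramidal cell markers (754 CPM, 1188 or more in the others) and the lowest *Prox1*, a granule cell marker (52.8 CPM), together with the highest sums of interneuron (1202 CPM) and neocortical markers (344 CPM). Withdrawal rats 4 and 5 had choroid plexus marker sums of 28.4 and 31.1 CPM, against 1096 to 5406 CPM in the other 16 rats, of which ethanol rats 1 and 6 and withdrawal rat 6 had 5029 or more. The habenular marker *Gpr151* was at 0.353 CPM or less in control rats 2, 4 and 5, ethanol rat 5 and withdrawal rats 2 to 5, at 1.66 and 1.65 CPM in ethanol rat 6 and withdrawal rat 6, and from 5.63 to 16.6 CPM in the other 8. *Pou4f1*, another habenular marker, differed from it in withdrawal rat 5, at 15.3 CPM where all rats ran from 0.274 to 15.9 CPM. The sum of 7 habenular markers was 120 CPM in that rat, and 77.7 to 254 CPM over all rats. Each of the 8 striatal and 6 thalamic markers was counted in every rat. Ethanol rats 1 and 4, withdrawal rats 4 and 5 and the marker genes named here were picked after their values were seen, and results without these rats are given below.

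Per kilobase of exon, the scale on which different genes can be compared, *Pdyn* and *Penk* were the most abundant of the 7. In control rats, *Pdyn* stood at 21.4 ± 6.37 CPM per kb (mean ± SD, n = 6), *Penk* at 12.4 ± 3.30, *Oprl1* at 5.82 ± 0.945 and *Pnoc* at 4.95 ± 0.304. The classical receptors were lower, with *Oprk1* at 0.970 ± 0.384, *Oprd1* at 0.753 ± 0.176 and *Oprm1* at 0.633 ± 0.305 CPM per kb. *Pdyn* lay above 79.4% of the genes tested and *Oprm1* above 19.2%. The lowest control value of *Penk* (7.49) was above the highest of *Oprl1* (6.83), and the lowest of *Pnoc* (4.55) above the highest of *Oprk1* (1.36). Neighbours elsewhere in this order overlapped, although *Pdyn* exceeded *Penk* within each of the 6 control rats. *Oprl1* exceeded *Pnoc*, *Oprk1* exceeded *Oprd1* and *Oprd1* exceeded *Oprm1* in 4 of 6.

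**Figure D1:**
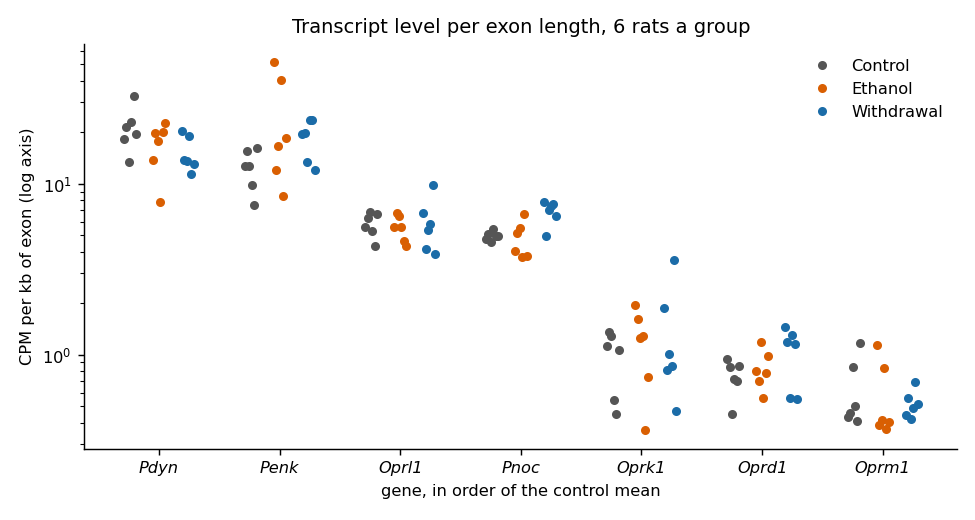
Transcript level of the 7 genes per kilobase of exon (CPM per kb, log axis), in order of the control mean, with 1 point per rat and 6 rats a group. Control means run from 21.4 for *Pdyn* to 0.633 for *Oprm1*, and *Oprk1*, *Oprd1* and *Oprm1* lie below the other 4 genes.

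*Penk*, the enkephalin precursor, ranged in control rats from 12.2 to 26.4 CPM with a median of 20.8. In ethanol rats it ran from 13.8 to 83.8 CPM (median 28.6), and in withdrawal rats from 19.6 to 38.7 CPM (median 32.2). The ethanol group was spread by rats 1 and 4, the pair with high striatal markers, at 83.8 and 65.7 CPM, while its other 4 rats reached 30.1 CPM at most. In withdrawal, 4 of 6 rats lay above every control rat.

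*Pdyn*, the dynorphin precursor, ran from 33.5 to 81.6 CPM in control rats (median 51.7). It ran from 19.6 to 57.0 CPM in ethanol rats (median 47.4) and from 28.6 to 51.2 CPM in withdrawal rats (median 34.5). All 6 withdrawal rats lay below the control mean of 53.7 CPM, and 2 of them below every control rat. Control rat 5 was the highest of all 18, and ethanol rat 4 the lowest.

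*Pnoc*, the nociceptin precursor, was tightly held in control rats, from 5.39 to 6.45 CPM (median 5.87). Ethanol rats spread to both sides of that range, from 4.42 to 7.90 CPM (median 5.48). Withdrawal rats ran from 5.85 to 9.30 CPM (median 8.57). Of these, 5 lay above every control rat, and withdrawal rat 2 lay inside the control range. The counts behind these values were 150 to 339 read pairs per rat.

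*Oprm1*, the mu receptor, spread widely within 2 of the 3 groups. Control rats ran from 1.98 to 5.65 CPM (median 2.32), ethanol rats from 1.78 to 5.53 CPM (median 1.99) and withdrawal rats from 2.04 to 3.36 CPM (median 2.44). The 4 rats at 4.05 CPM or more were control rats 3 and 6 and ethanol rats 1 and 4, and no withdrawal rat was among them.

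*Oprd1*, the delta receptor, was the least counted member, with 25 to 72 read pairs per rat. It ran from 0.633 to 1.34 CPM in control rats (median 1.11), from 0.790 to 1.67 CPM in ethanol rats (median 1.12) and from 0.774 to 2.05 CPM in withdrawal rats (median 1.66). In withdrawal, 4 rats lay above every control rat and the other 2, rats 3 and 6, at the lower end of the control range.

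*Oprk1*, the kappa receptor, varied most among withdrawal rats, with a coefficient of variation of 80.5% there against 39.6% in control rats. Control values ran from 2.20 to 6.61 CPM (median 5.31), ethanol values from 1.76 to 9.56 CPM (median 6.19) and withdrawal values from 2.28 to 17.5 CPM (median 4.55). Withdrawal rat 5 held the highest value and withdrawal rat 1 the next of its group, at 9.08 CPM, and the withdrawal median was below the control median.

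*Oprl1*, the nociceptin receptor, was the most counted receptor gene, with 634 to 1585 read pairs per rat. It ran from 18.8 to 29.6 CPM in control rats (median 25.7), from 18.8 to 29.4 CPM in ethanol rats (median 24.3) and from 16.8 to 42.6 CPM in withdrawal rats (median 24.3). Withdrawal rat 5 was again the highest, and withdrawal rats 6 and 2 lay below every control rat.

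**Figure D2:**
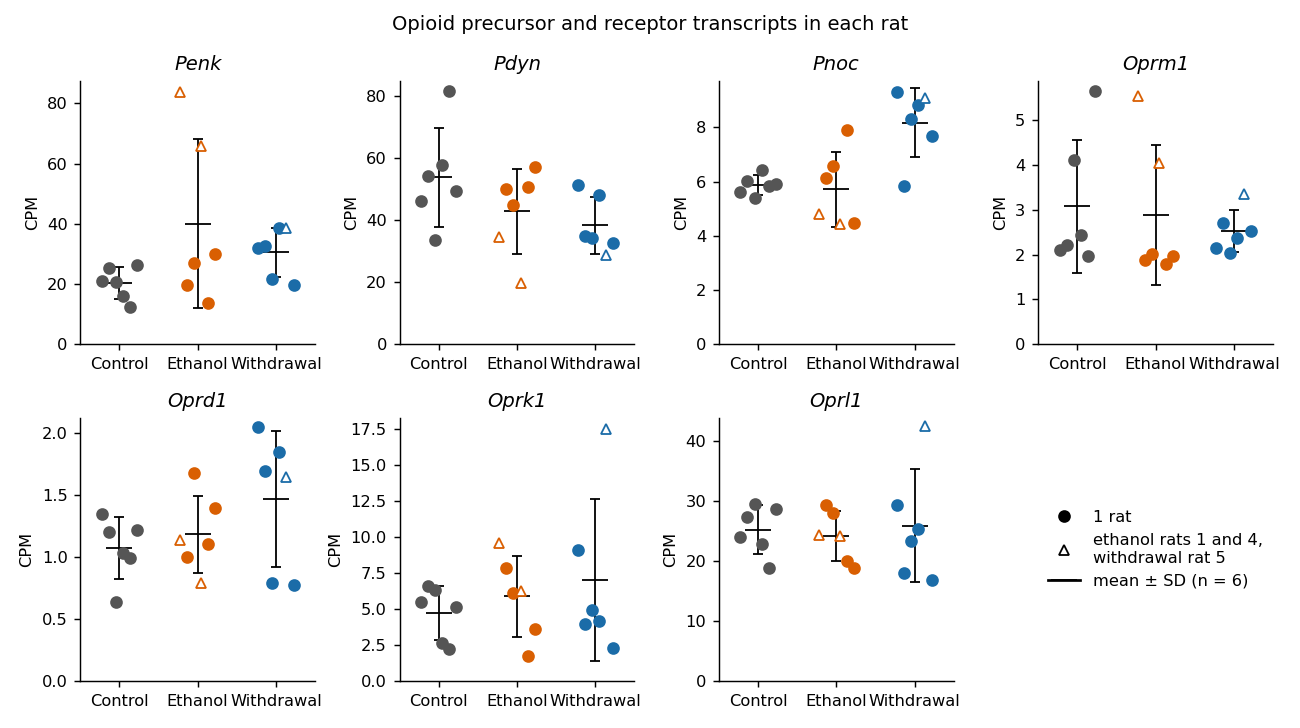
Level of each of the 7 genes in CPM, 1 point per rat, with rats 1 to 6 from left to right in each group and the group mean ± SD (n = 6) as bars. Open triangles mark ethanol rats 1 and 4 and withdrawal rat 5; ethanol rats 1 and 4 lead *Penk* at 83.8 and 65.7 CPM, withdrawal rat 5 leads *Oprk1* at 17.5 CPM and *Oprl1* at 42.6 CPM, and 5 of 6 withdrawal rats exceed every control rat in *Pnoc*.

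The first comparison asked what the continued ethanol diet changed. No precursor and no receptor transcript passed the test between ethanol and control rats (0 of 7 at q < 0.1, the adjusted p of limma-voom with 3 surrogate variables, where 0.493% of all genes tested were called, and also 0 of 7 without surrogate variables, where 0.28% were). Group means of *Penk* were 40.03 CPM in ethanol against 20.3 CPM in control rats, yet the adjusted log2 difference of 0.38 ± 0.25 (SE) had q = 0.558. It was 0.74 ± 0.38 without surrogate variables and 0.98 in edgeR and DESeq2 without them (q = 0.292 and 0.206), and without ethanol rats 1 and 4 it was 0.16 (q = 0.824), or 0.13 with no surrogate variables as well. The 7 genes had a median absolute log2 difference of 0.20, against 0.080 over all genes tested, and of 0.14 against 0.094 without surrogate variables.

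*Oprm1* came nearest to the threshold, with a log2 difference of -0.60 ± 0.20 and q = 0.233, and it was the only member with an unadjusted p under 0.05 (0.00889), which 12.5% of all genes had. Without the surrogate variables its difference was -0.13 ± 0.30 (q = 0.899), and the exact permutation test, two-sided, gave p = 0.643. Leaving out ethanol rats 1 and 4, no member was called either. edgeR and DESeq2 also called none of the 7, with or without surrogate variables.

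The comparison of withdrawal with control addressed what had changed a day after the diet ended. *Pnoc* rose and *Oprl1*, the gene of the receptor for its peptide, was called lower, while the other 5 members did not pass the test. That is 2 of 7 at q < 0.1, where 5.41% of all genes tested were called, 2.87% higher and 2.54% lower. Without surrogate variables it was 0 of 7, where 0.23% of all genes were called. The difference in *Pnoc* was 0.41 ± 0.11 on the log2 scale (1.32-fold, q = 0.0707), from a mean of 5.87 ± 0.360 CPM in control to 8.18 ± 1.28 CPM in withdrawal (SD, n = 6 each). Its unadjusted exact permutation p was 0.00866, the smallest of the 7 in this comparison, where 0.00216 is the smallest that 924 splits of 6 against 6 can give. *Pnoc* belongs to a gene module that the study built on these samples, so the module is not independent evidence of a rise of *Pnoc* in withdrawal.

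The call of *Pnoc* was close to the threshold. It held in 13 of 26 other settings and in 10 of 18 fits that left out 1 rat, with a higher level in withdrawal in all of them (log2 0.21 to 0.50). Without surrogate variables the difference was 0.45 ± 0.14 with q = 0.219. Leaving out a control rat gave q = 0.116 (rat 1), 0.115 (rat 2), 0.155 (rat 3), 0.109 (rat 5) and 0.1003 (rat 6). Leaving out a withdrawal rat gave q = 0.132 (rat 1), 0.121 (rat 3) and 0.270 (rat 6), and without ethanol rats 1 and 4 and withdrawal rat 5 together the difference was 0.27 with q = 0.353. Without withdrawal rats 4 and 5, the pair low in choroid plexus markers, it was 0.21 with q = 0.604, where 28 of 17754 genes were called in all.

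*Oprl1* was called lower only in fits with surrogate variables. Unadjusted means were 25.2 ± 4.09 CPM in control and 25.9 ± 9.39 CPM in withdrawal, with 3 of 6 withdrawal rats above the control mean and an exact permutation p of 0.942. With 3 surrogate variables the log2 difference was -0.17 ± 0.051 (q = 0.0777), with none it was -0.036 ± 0.19 (q = 0.962), and edgeR and DESeq2 without them gave 0.037 (q = 0.954 and 0.960). The call held in 8 of 26 other settings and in 10 of 18 fits that left out 1 rat. Leaving out control rats 2, 3, 4 or 6 gave q = 0.137, 0.139, 0.122 and 0.140, and leaving out withdrawal rats 1, 2, 4 or 6 gave q = 0.131, 0.146, 0.102 and 0.187. Without withdrawal rats 4 and 5 the difference was -0.23 (q = 0.247), or -0.25 with no surrogate variables (q = 0.605). Without ethanol rats 1 and 4 and withdrawal rat 5 it was -0.19 (q = 0.198), or -0.20 with no surrogate variables (q = 0.649). The interneuron markers, whose sum ran from 675 to 864 CPM in control and from 749 to 1202 CPM in withdrawal, moved with *Oprl1* from rat to rat, as described below, and their part in this difference was not tested.

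**Figure D3:**
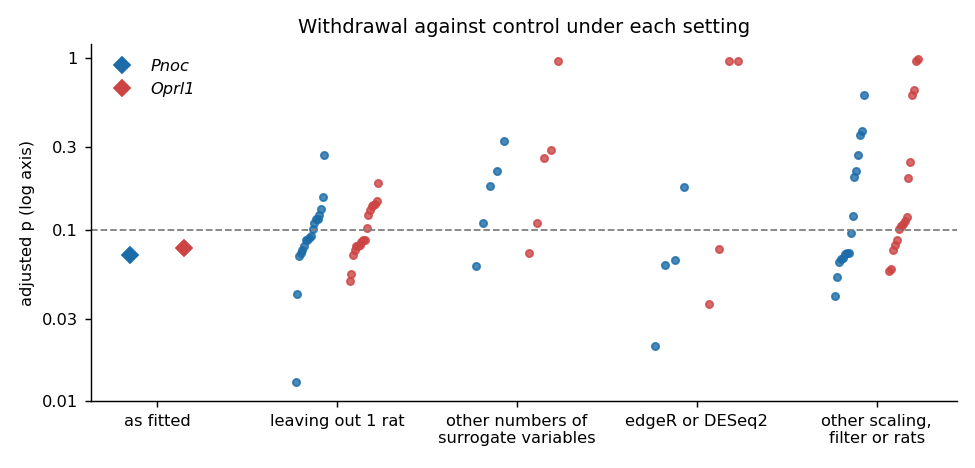
Adjusted p (log axis) for *Pnoc* and *Oprl1* in withdrawal against control, as fitted (diamonds, 0.0707 and 0.0777) and under each other setting (1 point per fit), with the threshold of 0.1 as a dashed line. Points of both genes lie on both sides of the line when 1 rat is left out and when the number of surrogate variables is changed.

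*Penk* and *Pdyn* did not pass the adjusted test, with differences of opposite sign. For *Penk* the log2 difference between withdrawal and control was 0.50 ± 0.23 (q = 0.231), with means of 30.5 against 20.3 CPM and an exact permutation p of 0.0390. For *Pdyn* it was -0.49 ± 0.20 (q = 0.194), with means of 38.2 against 53.7 CPM and an exact permutation p of 0.0606. Without withdrawal rat 5 the *Penk* difference was 0.64 with q = 0.0594. The sum of striatal markers was 247 to 286 CPM in control and 252 to 360 CPM in withdrawal, and its part in the *Penk* values was not tested.

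The 3 classical receptors gave smaller values against their error in withdrawal. *Oprm1* differed from control by -0.27 ± 0.18 (q = 0.426), *Oprd1* by 0.29 ± 0.27 (q = 0.575) and *Oprk1* by 0.080 ± 0.17 (q = 0.829). Their 95% intervals ran from -0.65 to 0.11, from -0.27 to 0.86 and from -0.27 to 0.43. For *Oprk1* the difference was 0.30 ± 0.47 (q = 0.857) without surrogate variables and 0.56 in edgeR and DESeq2 without them (q = 0.653 and 0.683), and the direction turned with 1 surrogate variable (-0.053) and without control rat 6 (-0.11).

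Withdrawal was also compared with the continued ethanol diet. None of the 7 genes passed (0 of 7 at q < 0.1, where 2.72% of all genes tested were called). *Pnoc* had a log2 difference of 0.30 ± 0.13 (q = 0.258), with all 6 withdrawal rats above the ethanol mean of 5.72 CPM and 4 above every ethanol rat. *Oprl1* had -0.18 ± 0.057 (q = 0.120), although its unadjusted mean was 24.1 CPM in ethanol and 25.9 CPM in withdrawal rats. These 2 had an unadjusted p under 0.05, as did 16.5% of all genes.

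Without surrogate variables *Pnoc* did pass between withdrawal and ethanol, at 0.52 ± 0.14 (q = 0.0789; 1 of 7, where 3.14% of all genes were called), also in edgeR (0.52, q = 0.0742) and DESeq2 (0.52, q = 0.0177). With 3 surrogate variables, edgeR called no member and DESeq2 called 1, *Oprl1* (-0.18, q = 0.0737). The exact permutation p of *Pnoc* was 0.0195 and that of *Oprl1* 0.844. With 3 surrogate variables *Pnoc* passed too without ethanol rat 5 (0.46, q = 0.0495) and without withdrawal rat 2 (0.42, q = 0.0776), and *Oprl1* passed without control rat 5 (q = 0.0940) or ethanol rat 5 (q = 0.0867). Without ethanol rats 1 and 4 and with no surrogate variables the *Pnoc* difference was 0.38 (q = 0.312).

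*Penk* differed between withdrawal and ethanol by 0.13 ± 0.26 with surrogate variables (q = 0.845) and by -0.16 ± 0.38 without. *Pdyn* stood at -0.34 ± 0.23 (q = 0.479), *Oprm1* at 0.33 ± 0.21 (q = 0.455), *Oprd1* at 0.044 ± 0.30 (q = 0.965) and *Oprk1* at -0.12 ± 0.18 (q = 0.779). The 3 comparisons share their groups, so that 1 high or low group enters 2 of them.

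**Figure D4:**
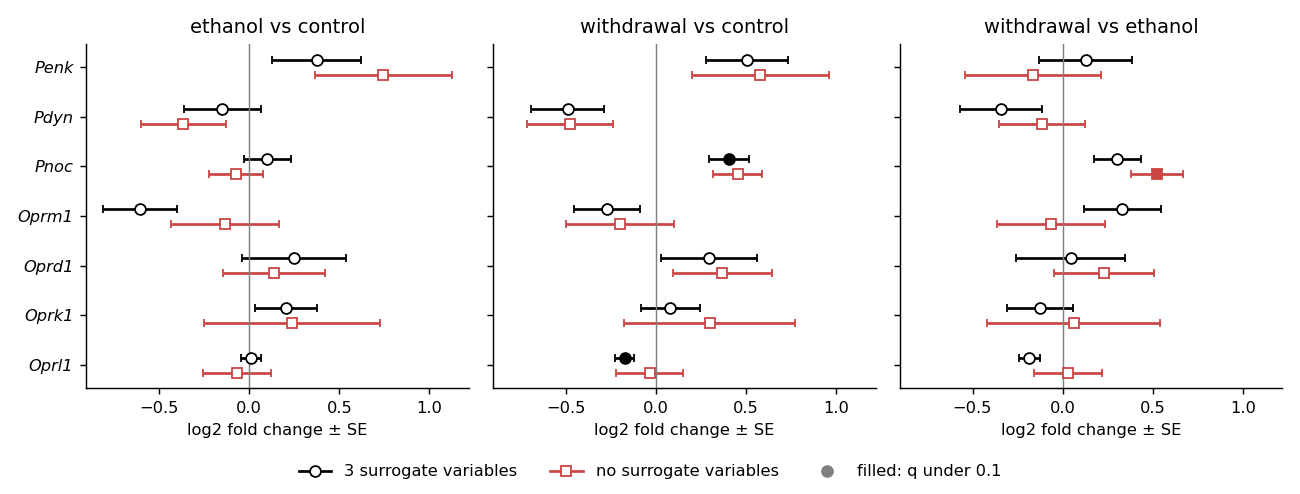
Log2 fold change ± SE of the 7 genes in each comparison, with 3 surrogate variables (circles) and without (squares), filled where the adjusted p was under 0.1. Filled symbols are *Pnoc* (0.41) and *Oprl1* (-0.17) in withdrawal against control with surrogate variables, and *Pnoc* in withdrawal against ethanol without them (0.52).

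Library index sets followed the groups in part. All 6 control libraries carried set 1, the 6 ethanol libraries and 2 of the withdrawal libraries set 2, and the other 4 withdrawal libraries set 3, so index set and control diet cannot be told apart. With the set as a term and no surrogate variables, *Pnoc* differed between withdrawal and ethanol by 0.37 (q = 0.780). In that fit 0 of 17693 genes were called.

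Across the 18 rats, each centred on its group mean in log2 CPM, several members varied together with markers of a region or cell type. The following r values describe rats that share groups, dissection and library scale, and carry no test. For a marker list, r was taken with the mean of its markers on that centred log2 scale, not with their summed CPM. *Penk* had r = 0.94 with the 8 striatal markers. Over all genes tested, the genes most like *Penk* included *Drd1* (0.93), a striatal marker of that list, and *Scn4b* (0.92). *Oprm1* had r = 0.81 with the 6 thalamic markers and 0.74 with the striatal ones, and *Penk* had 0.64 with the thalamic markers. Their r with each other was 0.76. For *Penk* and *Oprm1*, r with the 6 oligodendrocyte markers was 0.66 and 0.66, and with the 6 pyramidal cell markers -0.65 and -0.55. *Oprm1* was most like *Spock3* (0.94), *Trim26* (0.93) and *Reps2* (0.92).

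*Oprk1* and *Oprl1* had r = 0.87 with each other. With the 11 interneuron markers tested their r was 0.87 and 0.91, with the 6 pyramidal cell markers -0.85 and -0.75, and with the 6 granule cell markers -0.65 and -0.83. With the 6 endothelial and pericyte markers it was 0.73 and 0.57, and with the 7 habenular markers 0.62 and 0.44. The r of *Pnoc*, *Oprd1* and *Oprm1* with the interneuron markers was 0.33, 0.29 and 0.28, and that of *Pdyn* with the granule cell markers 0.34. The genes most like *Oprk1* included *Hivep1* and *Ppp1r26* (each 0.97), and *Oprl1* was most like *Hecw1* (0.96), *Rab9b* (0.95) and *Usp13* (0.95). Withdrawal rat 5, with the highest *Oprk1* and *Oprl1*, was also the rat with the highest interneuron and the lowest pyramidal and granule cell sums. *Oprl1* also had r = -0.65 with the 6 choroid plexus markers and 0.61 with the 6 neocortical markers.

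*Pnoc* had r = -0.68 with the 8 striatal markers and -0.65 with the 6 oligodendrocyte markers. It was most like *C12h12orf43* (0.91), *Ap3b2* (0.88) and *Pym1* (0.87), and *Pdyn* most like *Polrmt* (0.83), *Ptov1* (0.82) and *Ranbp3* (0.81). *Oprd1*, with its few read pairs, reached 0.77 with *LOC102555506*, 0.74 with a gene without a symbol in the table and 0.72 with *Yeats4*.

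**Figure D5:**
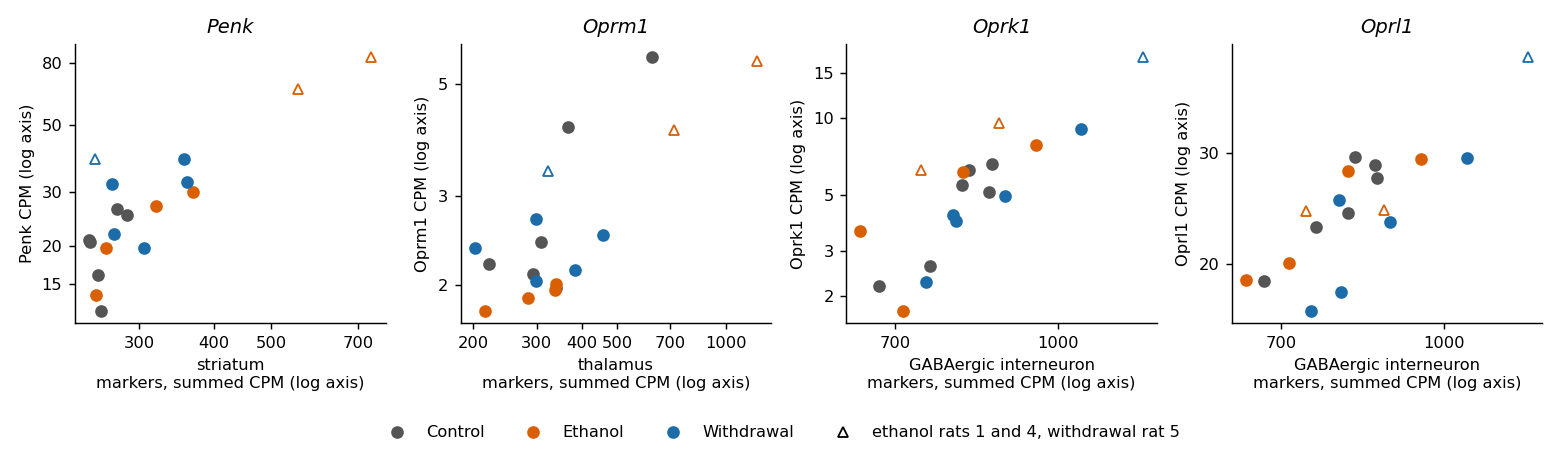
CPM of *Penk*, *Oprm1*, *Oprk1* and *Oprl1* (log axes) against the summed CPM of striatal, thalamic and interneuron markers (log axes), 1 point per rat, colored by group, with open triangles for ethanol rats 1 and 4 and withdrawal rat 5. Ethanol rats 1 and 4 are highest in striatal markers (737 and 555 CPM) and in *Penk*, and withdrawal rat 5 is highest in interneuron markers (1202 CPM), *Oprk1* and *Oprl1*.

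The precursor genes were set against each other over all 18 rats, in 3 pairs. *Penk* and *Pdyn* ran in opposite directions, with Pearson r = -0.61 (permutation p = 0.00676, 0.0203 after adjustment over the 3 pairs) and Spearman rho = -0.45 (permutation p = 0.0627, 0.188 adjusted). The relation rested in part on ethanol rats 1 and 4, the 2 rats farthest from the *Penk* median, without which r was -0.44 (permutation p = 0.0898). Within groups r was -0.64 in control, -0.73 in ethanol and 0.28 in withdrawal rats, so it did not hold within withdrawal. *Penk* with *Pnoc* gave r = -0.25 (permutation p = 0.319, 0.479 adjusted) and rho = -0.09 (p = 0.716 by permutation, 0.921 adjusted), and r = 0.23 without the same 2 rats. *Pdyn* with *Pnoc* gave r = 0.07 (permutation p = 0.773, 0.773 adjusted) and rho = 0.03 (p = 0.921 by permutation, 0.921 adjusted), and r = -0.18 without control rat 5 and ethanol rat 4. Within control, ethanol and withdrawal rats, r was -0.19, -0.80 and 0.18 for *Penk* with *Pnoc*, and 0.58, 0.49 and 0.32 for *Pdyn* with *Pnoc*. Centred on group means, r was -0.54 for *Penk* with *Pdyn*, -0.52 for *Penk* with *Pnoc* and 0.42 for *Pdyn* with *Pnoc*, with no test. The permutations ran over all 18 rats without regard to group, so differences between groups enter their p-values.

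Genes that act beside the members were read from lists. Of 7 tested enzymes and helpers of precursor processing, *Pam*, which amidates peptides, and *Ctsl*, a protease that also cuts proenkephalin, were higher in withdrawal than in control, where 2.87% of all genes tested were called higher. *Pam* rose from 314 ± 11.6 to 363 ± 34.1 CPM (log2 0.18 ± 0.037, q = 0.0223) and *Ctsl* from 109 ± 4.18 to 123 ± 14.4 CPM (0.22 ± 0.042, q = 0.0216). *Pam* was higher than in ethanol rats as well (297 ± 24.1 CPM, log2 0.20 ± 0.041, q = 0.0460), with an exact permutation p of 0.00216, the smallest these groups allow. None of the 7 passed between ethanol and control.

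None of the 9 peptidases that break opioid peptides down, of the 10 G protein subunits, of the 10 GIRK channel and adenylyl cyclase genes or of the 7 trafficking and scavenging genes passed in any comparison. Of these 36 genes, 3 (ethanol against control), 6 (withdrawal against control) and 4 (withdrawal against ethanol) had an unadjusted p under 0.05 in limma-voom, as did 12.5%, 19.8% and 16.5% of all genes tested, and none passed without surrogate variables either. Of 14 genes of receptor desensitisation and RGS proteins, *Rgs10*, which speeds the shutdown of Gi/o signals, was lower in withdrawal than in ethanol (53.6 ± 7.75 against 60.5 ± 10.5 CPM, log2 -0.28 ± 0.073, q = 0.0766). In that comparison 2.72% of all genes tested were called. Without surrogate variables the difference in *Rgs10* was -0.16 (q = 0.458), and its exact permutation p was 0.247. *Pomc*, the precursor of beta-endorphin, averaged 1.02 CPM in control, 1.09 in ethanol and 1.25 in withdrawal rats and did not pass.

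Of 13 CREB and AP-1 genes, regulators known to act on opioid precursor promoters, 1 passed, the CREB coactivator *Crtc1*, which was lower in withdrawal than in control (198 ± 23.9 against 225 ± 16.1 CPM, log2 -0.17 ± 0.045, q = 0.0635), where 2.54% of all genes tested were called lower. Without surrogate variables *Crtc1* did not pass and 1 other gene of the list did, *Creb1*, which was higher in withdrawal than in ethanol (46.3 against 39.2 CPM, log2 0.23, q = 0.0716, where 3.14% of all genes were called), against 0.19 (q = 0.161) with 3 surrogate variables. *Fos* averaged 9.03 ± 1.07 CPM in control, 21.8 ± 22.9 in ethanol and 15.1 ± 5.82 in withdrawal rats and did not pass. Of 11 activity-regulated neuronal genes, *Bdnf* (32.1 ± 4.02 to 52.1 ± 24.6 CPM, log2 0.67 ± 0.20, q = 0.0842) and *Vgf* (28.0 ± 5.96 to 47.4 ± 17.2 CPM, log2 0.71 ± 0.21, q = 0.0781) were called higher in withdrawal than in control, where 2.87% of all genes tested were, and the other 9 did not pass. The list's median was 0.53, or 0.45 without surrogate variables, where all genes tested had 0.00. None of the calls of *Pam*, *Ctsl*, *Crtc1*, *Bdnf* and *Vgf* against control held without surrogate variables (q = 0.206 to 0.359), while *Pam* against ethanol did (q = 0.0466).

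Cell type markers also moved between groups. Of the 12 marker lists, *Gad2*, a GABA-synthesising enzyme of interneurons, was higher in withdrawal than in ethanol (122 ± 28.0 against 79.8 ± 22.6 CPM, q = 0.0571). There 1 of 11 interneuron markers tested passed, where 2.72% of all genes tested were called. In ethanol against control (0.493% of all genes called) and in withdrawal against control (5.41%), 0 of 11 passed. The astrocytic *Gfap* was also higher in withdrawal than in ethanol (1326 ± 345 against 797 ± 229 CPM, q = 0.0571). The granule cell marker *Prox1* was lower in withdrawal than in control (q = 0.0966, mean 103 ± 34.01 against 128 ± 11.8 CPM), as were the habenular *Gpr151* (q = 0.0817) and *Chrna3* (q = 0.0510) and the astrocytic *Aldh1l1* (q = 0.0483) and *Gja1* (q = 0.0854). Against control, *Gfap* (q = 0.0767) and the vascular *Pecam1* (q = 0.0254), *Flt1* (q = 0.0623) and *Pdgfrb* (q = 0.0719) were higher. Of all genes tested, 2.87% were called higher and 2.54% lower between withdrawal and control. None of these 9 markers passed between withdrawal and control without surrogate variables (q from 0.205 to 0.795). Between withdrawal and ethanol *Gad2* (q = 0.0831) and *Gfap* (q = 0.0782) did, and so did the pyramidal cell marker *Bok*, which was lower in withdrawal (-0.72, q = 0.0997) and had not passed with 3 surrogate variables (-0.31, q = 0.186). No striatal, thalamic, neocortical, pyramidal cell, microglial, oligodendrocyte or choroid plexus marker passed in any comparison with 3 surrogate variables. The 8 striatal markers had differences above 0 in 8 of 8, with a median log2 of 0.415 in ethanol and 0.39 in withdrawal against control (0.82 and 0.39 without surrogate variables), beside 0.38 and 0.50 for *Penk*. The part of these shifts in the values of the opioid genes was not tested.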

How the data were processed

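Dorsal hippocampus RNA from 6 rats a group was sequenced as paired ends on the Illumina platform. Per the labels and the study's methods, the authors aligned reads to Rnor_6.0 with STAR 2.5.2a and counted read pairs over exons by gene with featureCounts 1.5.0, by strand per the file headers (FastQC 0.11.4, R 3.3.3 and limma are also named in the submitters' processing notes). The deposited values are whole-number counts per gene, not normalized. Each rat's group and number come from its title.

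From these counts, library sizes were scaled by TMM (edgeR 4.0.16), genes above 0.5 CPM in at least 1 rat were kept, and TMM was computed again on those genes. limma-voom (limma 3.58.1, R 4.3.3) was fitted to all 3 groups in 1 model with 3 surrogate variables (sva 3.50.0), which were estimated from log2 CPM (prior count 2), and p-values were adjusted over all 17853 genes by Benjamini-Hochberg (q), with calls at q < 0.1. Neither the number of surrogate variables nor the number of rats in the filter is given in the sources used here; 3 was taken from an earlier analysis of these data, and the second TMM step was kept after its counts of calls had been seen to match that analysis. edgeR's quasi-likelihood test and DESeq2 1.42.0 were alternatives, along with other scalings, filters, numbers of surrogate variables and left-out rats. The fit was tested on simulated data. For each member, mean log2 CPM was also set between groups by exact permutation over 924 splits, two-sided, 21 tests in all, with unadjusted p. The same test was run for the other tested genes of the lists, and is quoted for *Pam* and *Rgs10*. Correlations of precursors used 100000 permutations. Fits that left out rats 1 and 4 of the ethanol group or rats 4 and 5 of the withdrawal group, and the fit without the second TMM step, were added after the data were seen.

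The 7 members, 11 gene lists (members included) and 12 marker lists were chosen with earlier results of these data known. All 7 members are named, from each list the genes called in any comparison (up to 4 per list and comparison), and for each member the 3 genes with the highest r of group-centred log2 CPM, of which 2 are not reported here. *Pomc* and *Fos*, the marker genes given by rat, *Bok*, *Creb1* and the promoter motifs were chosen beside that rule. Gene names matched 29322 of 38445 gene IDs in the RefSeq table. No 2 libraries of a group were repeats of each other (chi-square per degree of freedom 5.48 to 111 over 45 pairs). Each library is 1 animal. Total counts of 30873228 to 42679748 per rat (median 36302755) set the counting error, which is largest for *Oprd1*.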

Additional observations from a re-analysis of the deposited data

How the results depend on the processing

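No setting called a member between ethanol and control. Between withdrawal and control the 2 calls (*Pnoc*, *Oprl1*) became 0 at q < 0.05, with 0, 1 or 5 surrogate variables, in edgeR without them, with no filter beyond 1 count, without ethanol rats 1 and 4 and withdrawal rat 5, and without withdrawal rats 4 and 5, with or without surrogate variables. They became 1 with 2 surrogate variables (*Oprl1*), in DESeq2 without them (*Pnoc*), with only the 2 groups compared (*Pnoc*) and without ethanol rats 1 and 4 (*Pnoc*), where leaving out those rats with no surrogate variables gave 0. Between withdrawal and ethanol the 0 calls became 1 with 0 or 1 surrogate variables, in edgeR without them, and in DESeq2 without or with 3. Leaving out 1 rat gave 0 to 3 calls between withdrawal and control and 0 to 2 between withdrawal and ethanol. Over all genes tested the counts ranged more widely: 0 to 435, 0 to 1948 and 0 to 1773 in ethanol against control, withdrawal against control and withdrawal against ethanol (88, 965 and 485 as reported), for example 50, 41 and 560 without surrogate variables, and 23, 28 and 1948 in withdrawal against control without withdrawal rat 6, rats 4 and 5, and rat 2. With TMM factors from before the filter they were 116, 997 and 482, with the same 0, 2 and 0 members called. Wherever a call or direction changed, the cause was not tested.

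The rats' numbers were not used as pairs in the main fit. Deviations of same-numbered rats correlated at -0.26 to 0.33, -0.32 to 0.08 and -0.31 to 0.38 in the 3 comparisons, and 3, 0 and 1 of 6 pairs exceeded 0.1. The best match of a rat was its own number in 3, 0 and 1 of 6. The study states that rats were pair fed, and whether the numbers mark those pairs was not tested. With a replicate block and 3 surrogate variables *Pnoc* (0.42, q = 0.0647) and *Penk* (0.52, q = 0.0963) were called between withdrawal and control and *Oprl1* was not, and *Oprd1* turned to -0.082 between withdrawal and ethanol. The replicate block without surrogate variables called 0 members between withdrawal and control and turned *Pnoc* (-0.054) and *Oprl1* (-0.057) in ethanol against control, and *Penk* (-0.23), *Oprm1* (-0.10), *Oprk1* (0.0084) and *Oprl1* (0.038) in withdrawal against ethanol. All genes called under it were 0, 0 and 21.

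Other directions that turned were of differences that had not passed, except that of *Oprl1* in withdrawal against control (0.037 in edgeR and in DESeq2 without surrogate variables). In ethanol against control, *Pnoc* turned with 0 or 1 surrogate variables (-0.072 and -0.069) and in edgeR and DESeq2 without them (-0.038 and -0.039). *Oprl1* turned with 0, 1 or 4 surrogate variables (-0.067, -0.052 and -0.0045), in edgeR and DESeq2 without them (-0.063 and -0.065), with upper quartile scaling (-0.00013), and without ethanol rats 1 and 4 (-0.0025, or -0.083 with no surrogate variables and -0.076 without withdrawal rat 5 as well). *Oprk1* turned with only the 2 groups compared (-0.076) and, with no surrogate variables, without ethanol rats 1 and 4 (-0.067) or also withdrawal rat 5 (-0.061). In withdrawal against control, *Oprk1* turned with 1 surrogate variable (-0.053) and without all 3 rats and surrogate variables (-0.035), and *Oprm1* without those 3 rats (0.046). Without withdrawal rats 4 and 5, *Oprl1* (-0.011) turned in ethanol against control and *Oprd1* (-0.086) in withdrawal against ethanol. With no surrogate variables as well, *Pnoc* (-0.077) and *Oprl1* (-0.071) turned in the first, *Oprk1* (-0.027) in withdrawal against control, and *Penk* (-0.36) and *Oprm1* (-0.15) in the last.

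In withdrawal against ethanol, 0 surrogate variables, 1 surrogate variable, edgeR and DESeq2 without them, and the index set term turned *Penk* (-0.16, -0.30, -0.39, -0.39 and -0.026) and *Oprm1* (-0.065, -0.17, -0.19, -0.19 and -0.094). *Oprk1* turned with 0 surrogate variables (0.062), in edgeR and DESeq2 without them (both 0.25), with the index set term (0.14), and with no surrogate variables without ethanol rats 1 and 4 (0.36) or also withdrawal rat 5 (0.026). *Oprl1* turned with 0 surrogate variables (0.031), in edgeR and DESeq2 without them (both 0.10), and with ethanol rats 1 and 4 left out as well (0.045). *Oprd1* turned with quality weights (-0.12) and without ethanol rats 1 and 4 (-0.037), and *Pdyn* with the index set term (0.058). Leaving out 1 rat gave ranges across 0 for *Pnoc* (-0.042 to 0.15) and *Oprl1* (-0.027 to 0.027) in ethanol against control, for *Oprk1* in withdrawal against control (-0.11 to 0.19), and for *Penk* (-0.057 to 0.48), *Oprd1* (-0.15 to 0.25) and *Oprk1* (-0.30 to 0.018) in withdrawal against ethanol.

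Beyond the replicate block, *Penk* passed between withdrawal and control with 4 surrogate variables (0.63, q = 0.0512), and *Pdyn* with quality weights (-0.62, q = 0.0731), while *Oprl1* lost its call in both (q = 0.110 and 0.101). Scaling by total counts alone took the exact permutation p of *Pdyn* there from 0.0606 to 0.0433 (difference -0.48). The correlation of *Penk* with *Pdyn* weakened to -0.44 without ethanol rats 1 and 4, which were also the 2 rats farthest from the median. That of *Penk* with *Pnoc* turned to 0.23 and that of *Pdyn* with *Pnoc* to -0.34 without these rats, and the latter to -0.18 without its own 2 farthest rats. Depth limits *Oprd1* most, with 25 to 72 read pairs per rat.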
